A study of Homo sapiens with 6 samples.

Results

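Sclerostin (SOST), its relative SOSTDC1, the secreted bone morphogenetic protein (BMP) and activin antagonists NOG, CHRD, GREM1, FST and FSTL3, the membrane pseudoreceptor BAMBI, and the activin subunits INHBA and INHBB were compared between the H460 H-INV and L-INV sublines. These 10 genes are represented by 13 probes of the array, and 5 of them had a probe that passed the detection filter, out of 10279 genes tested. The genes were selected with their H-INV versus L-INV values on these same 6 arrays in view, so every value of these 10 genes is given as a description and no p-value is attached to it. H460 is an established human large cell lung carcinoma line, a type of non-small cell lung cancer (NSCLC). The cells were placed above a membrane with 8.0 µm pores coated with basement membrane extract, in medium with 10% serum on both sides. Cells that remained above the membrane after 48 hours founded the L-INV cell subline (low invasiveness), and cells that had passed below it founded the H-INV cell subline (high invasiveness). Per the labels the separation was carried through 6 rounds, with growth in glucose-free medium between rounds and reselection every 6 passages. The study's methods give a longer stay above the membrane and fewer rounds. Neither subline received a drug, and unselected H460 cells were not analysed here. Total RNA of 3 sets of each subline was hybridised, and the labels do not say whether the sets were selected separately, so the spread between arrays may be technical.

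The 6 arrays resembled each other in depth and signal. Between 16368 and 16985 probes per array lay above background (detection p under 0.01), and the median scanner intensity ranged from 123 to 134. Pearson's r over all probes past the filter was 0.995 to 0.996 between arrays of one subline and 0.920 to 0.927 between the sublines, and the median standard error of a difference was 0.0824 on the log2 scale. All arrays lay on 1 BeadChip, with the L-INV arrays at its first positions and the H-INV arrays at its last, so position and subline cannot be told apart. Of 10279 genes tested, 58.0% passed an adjusted p of 0.05 (limma, Benjamini-Hochberg over all genes), 32.6% higher and 25.4% lower in H-INV cells. With a difference of over 2-fold added, 10.2% passed, 4.22% higher and 6.02% lower, and for 64.5% of genes the 3 H-INV arrays did not overlap the 3 L-INV arrays. The median difference over all genes was 0.05 on the log2 scale.

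BMPs, growth and differentiation factors (GDFs) and activins are secreted dimers that bind pairs of type I and type II serine/threonine kinase receptors, which phosphorylate SMAD proteins. The SMADs move to the nucleus and act on target genes, of which the ID genes are the textbook targets of BMP signaling. Antagonists work mostly outside the cell. NOG, CHRD and GREM1 bind BMPs, while follistatin (FST) and FSTL3 bind activins with high affinity. Sclerostin is known mainly as an osteocyte protein that binds the Wnt co-receptors LRP5 and LRP6 and so restrains bone formation. In NSCLC, antagonists of this family are of interest because BMP and activin signaling takes part in epithelial-mesenchymal transition and invasion.

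SOST and FST lay far apart between the sublines, in opposite directions. SOST stood higher in H-INV cells by 5.02 ± 0.11 on the log2 scale (SE). FST, which was not above background there, was at least 18.0-fold lower in the processing reported here. BAMBI was higher by 1.06 and FSTL3 lower by a difference of -0.36, while SOSTDC1, also not above background in H-INV cells, was at least 1.36-fold lower. The other 5 genes, NOG, CHRD, GREM1, INHBA and INHBB, were above background on 0 arrays. Of the 5 genes that passed the filter, 2 were therefore called higher and 3 lower in H-INV cells, beside 32.6% and 25.4% of all genes tested. Of the same 5 genes, 3 passed 2-fold (2 higher, 1 lower), beside 10.2%. For all 5 the arrays of the sublines did not overlap, beside 64.5% of all genes tested. These shares are over genes that passed the filter, so the other 5 genes are left out. Nothing is read from these counts, because the genes were selected on this contrast and because FST and SOSTDC1 passed the filter through the L-INV arrays alone.

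**Figure D1:**
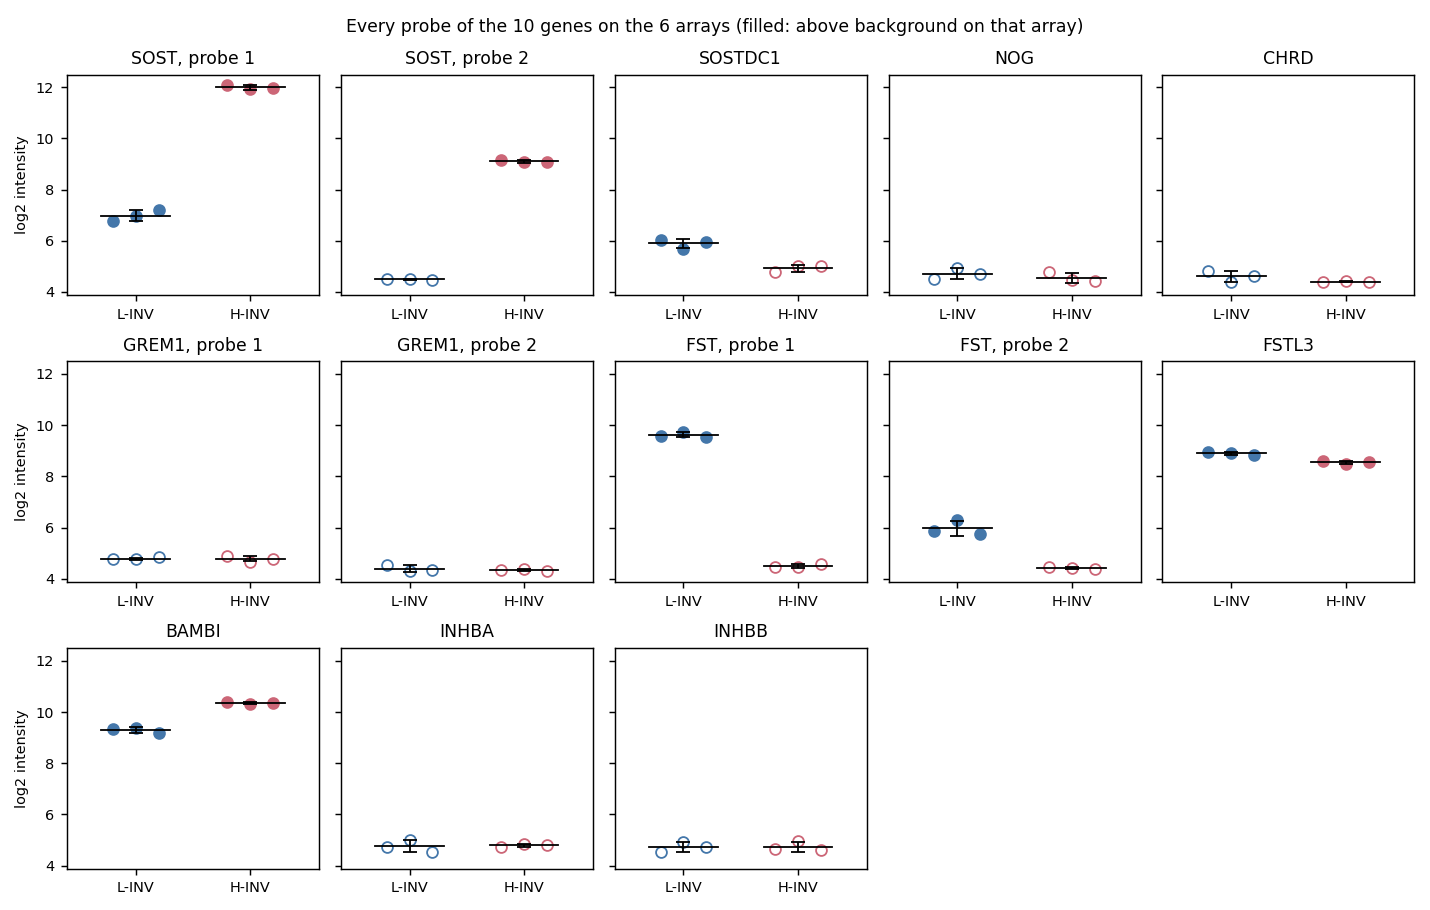
Normalized log2 intensity of each of the 13 probes (vertical axis) on the 3 L-INV and the 3 H-INV arrays, with points filled where the probe lay above background on that array and open where it did not, horizontal lines at the group means and bars for the SD. SOST, BAMBI, FST, SOSTDC1 and FSTL3 separate the sublines, and all points of NOG, CHRD, GREM1, INHBA and INHBB are open.

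The sequences just upstream of 3 of these genes are shown, those of SOST and FST because they differed most between the sublines and that of BAMBI because BAMBI is itself known as a target of BMP and transforming growth factor beta (TGF-β) signaling. Each is the 250 bases before the RefSeq start of the gene (GRCh38.p14), 5′ to 3′ on the gene's strand. Capitals mark matches on either strand to the E2 box CAGGTG, the SMAD box CAGAC, the GC-rich BMP element GGCGCC, the TATA box TATAAA and the MEF2 core (CTA, any 4 bases, TAG).
SOST promoter: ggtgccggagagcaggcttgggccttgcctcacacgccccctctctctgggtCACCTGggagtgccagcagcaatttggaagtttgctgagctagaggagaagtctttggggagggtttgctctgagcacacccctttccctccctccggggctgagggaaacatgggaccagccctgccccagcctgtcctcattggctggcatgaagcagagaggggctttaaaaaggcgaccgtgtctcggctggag
FST promoter: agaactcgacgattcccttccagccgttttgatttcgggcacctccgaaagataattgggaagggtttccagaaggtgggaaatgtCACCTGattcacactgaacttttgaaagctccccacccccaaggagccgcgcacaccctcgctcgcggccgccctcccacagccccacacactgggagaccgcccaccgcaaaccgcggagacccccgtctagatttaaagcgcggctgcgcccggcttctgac
BAMBI promoter: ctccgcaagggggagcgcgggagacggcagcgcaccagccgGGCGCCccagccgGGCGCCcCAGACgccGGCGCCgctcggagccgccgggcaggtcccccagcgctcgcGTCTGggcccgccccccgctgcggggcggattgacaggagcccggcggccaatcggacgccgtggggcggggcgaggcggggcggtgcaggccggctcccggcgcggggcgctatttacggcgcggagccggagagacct
The SOST window lies at chr17:43758792-43759041 on the minus strand, has 61.2% G and C and 6 CpG dinucleotides, and holds 1 E2 box, in reverse orientation, that begins 198 bases before the start. The FST window, chr5:53480379-53480628 on the plus strand, has 60% G and C and 20 CpG dinucleotides and also holds 1 reverse E2 box, 164 bases before the start. The BAMBI window, chr10:28677271-28677520 on the plus strand, has 81.2% G and C and 41 CpG dinucleotides. It holds 3 GC-rich BMP elements, at 209, 196 and 181 bases before the start, and 2 SMAD boxes, at 189 and 140 bases, none of which overlap. Of all 35116 RefSeq promoters of the same length 17.5% hold the E2 box, 16.4% the GC-rich BMP element, 38% the SMAD box, 10.7% the TATA box and 2.36% the MEF2 core, and their median G and C content is 58%. The GC-rich BMP element and the SMAD box are not particular to BAMBI among these genes. The first GREM1 promoter holds 2 of each, and the INHBB, CHRD and FSTL3 promoters hold 2, 1 and 1 GC-rich BMP elements. Those of SOST, FST and INHBA hold neither. A match is a run of letters and not a known binding site. A promoter was found for 8 of the 10 genes, and none was found for SOSTDC1 or NOG.

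SOST, the osteocyte inhibitor of Wnt signaling, was measured by 2 probes that both stood higher in H-INV cells. On the first probe, ILMN_1781242, normalized log2 intensity was 6.76, 6.97 and 7.21 on L-INV arrays 1 to 3, against 12.10, 11.93 and 11.96 on H-INV arrays 1 to 3. The scanner intensities behind them were 232, 228 and 237 in L-INV cells and 4268, 3899 and 4116 in H-INV cells. Every H-INV array was far above every L-INV array, and the probe lay above background on all 6, so the SOST transcript was detected in both sublines. The means were 6.98 ± 0.222 in L-INV and 12.00 ± 0.0909 in H-INV (SD, n = 3 each), a difference of 5.02 ± 0.11 (SE), or 32.4-fold. Among the 10279 genes this ranked 8 from the top of the rises in H-INV cells. On the second probe, ILMN_1700705, the L-INV arrays read 4.51, 4.49 and 4.48 and the H-INV arrays 9.15, 9.06 and 9.08. No L-INV array was above background on it (detection p 0.456, 0.536 and 0.553), whereas all 3 H-INV arrays were. Its difference was 4.61 ± 0.07 (SE), and as a bound SOST was at least 12.4-fold higher in the H-INV subline on this probe. Here and below, such a bound divides the brighter subline's mean by the level of the dimmest probes that still count as detected in the other, or by the probe's own level where that is higher. Each bound was computed in the reported processing alone.

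SOSTDC1, also called ectodin or wise, is the closest relative of sclerostin and binds both BMPs and LRP co-receptors. It stood on the other side from SOST, with lower values in H-INV cells. Its log2 intensity was 6.03, 5.69 and 5.96 in L-INV cells, against 4.77, 5.01 and 5.0 in H-INV cells. The sublines did not overlap, but the H-INV arrays were dim, with scanner intensities of 123, 131 and 131 against 182, 154 and 157 in L-INV cells. None of the H-INV arrays was above background at a detection p of 0.01, and 2 of the 3 were at 0.05 (0.131, 0.0468 and 0.0442). The measured difference was -0.96 ± 0.11 (SE), and as a bound SOSTDC1 was at least 1.36-fold lower in the H-INV subline.

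FST, follistatin, neutralises activins by enclosing them and binds some BMPs more weakly. It was clearly expressed in L-INV cells and not above background in H-INV cells. The probe annotated to transcript NM_013409 read 9.58, 9.73 and 9.55 in L-INV cells, against 4.45, 4.47 and 4.58 in H-INV cells. Scanner intensities were 979, 955 and 794 in L-INV cells and 111, 113 and 119 in H-INV cells, where the detection p was 0.590, 0.574 and 0.316. The H-INV arrays thus sat within the background and the L-INV arrays far above it. The means were 9.62 ± 0.0975 and 4.50 ± 0.0697 (SD, n = 3 each), and FST was at least 18.0-fold lower in the H-INV subline. The probe for the other annotated transcript, NM_006350, was dimmer but had the same direction. It read 5.86, 6.30 and 5.76 in L-INV cells, against 4.47, 4.44 and 4.39 in H-INV cells, a difference of -1.54 ± 0.13 (SE), or at least 1.44-fold lower in the H-INV subline. Both probes were above background in L-INV cells on all 3 arrays, and in H-INV cells on none.

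FSTL3, the follistatin relative that also binds activin and myostatin, differed far less than FST. Its log2 intensity was 8.97, 8.90 and 8.83 in L-INV cells, against 8.59, 8.49 and 8.55 in H-INV cells, all of them above background. The lowest L-INV array was above the highest H-INV array. The means of 8.90 ± 0.0690 and 8.54 ± 0.0506 (SD, n = 3 each) differed by -0.36 ± 0.07 (SE), which is 1.28-fold. The FSTL3 transcript thus remained measured in H-INV cells, in which that of FST was not above background.

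BAMBI resembles a type I receptor without the kinase domain and dampens BMP, activin and TGF-β signals at the membrane. It stood higher in H-INV cells. Its log2 intensity was 9.34, 9.37 and 9.17 in L-INV cells, against 10.40, 10.32 and 10.35 in H-INV cells, without overlap and above background on all 6. Scanner intensities were 842, 761 and 638 against 1337, 1338 and 1405. The means of 9.29 ± 0.107 and 10.36 ± 0.0387 (SD, n = 3 each) gave a difference of 1.06 ± 0.08 (SE), or 2.09-fold, just outside the 2-fold line.

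The other BMP antagonists and the activin subunits were not detected in either subline. The 6 probes of NOG, CHRD, GREM1, INHBA and INHBB were above background on 0 of 6 arrays, and their lowest detection p was 0.0506, for INHBA on L-INV array 2. For NOG, the BMP antagonist noggin, log2 intensity was 4.51, 4.93 and 4.71 in L-INV cells and 4.77, 4.45 and 4.43 in H-INV cells. CHRD, the antagonist chordin, read 4.83, 4.40 and 4.61 in L-INV and 4.39, 4.44 and 4.38 in H-INV cells. Both sets of arrays overlapped and had no order that could be read. GREM1, gremlin 1, read 4.77, 4.75 and 4.84 against 4.87, 4.67 and 4.78 on its first probe, and its second probe was dimmer with a lowest detection p of 0.377. INHBA, which forms activin A, read 4.74, 5.01 and 4.54 against 4.73, 4.85 and 4.82. INHBB, which forms activin B, read 4.53, 4.91 and 4.73 against 4.64, 4.96 and 4.62. These genes were thus not detectable at the sensitivity of the arrays, and no fold change is given for them. A detection p of 0.05 in place of 0.01 still left the same number of members measured, 5.

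How far the differences depended on the treatment of background was read from 4 other processings of the same arrays. The direction of all 7 detected probes was kept in each. Without background correction the difference of SOST on the first probe was 4.20 and that of FST on NM_013409 was -2.94, against 5.02 and -5.12 with it. In the authors' own normalized table they were 4.77 and -4.38, and with a larger offset, of 50, they were 4.68 and -3.85. The dim SOSTDC1 moved over a wide relative range, from -0.30 without correction to -0.96. BAMBI kept between 0.96 and 1.08, and FSTL3 between -0.36 and -0.29. The second probe of SOST moved from 4.61 to 2.49 without correction and to 3.36 with the larger offset, and that of FST from -1.54 to -0.55 and -0.80. The size of the SOST, FST and SOSTDC1 differences thus moved with the handling of background, most on probes that were dim in one subline, and that of BAMBI and FSTL3 moved little. The at-least bounds hold for the reported processing alone. That of FST on NM_013409 exceeds the difference found without background correction.

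**Figure D2:**
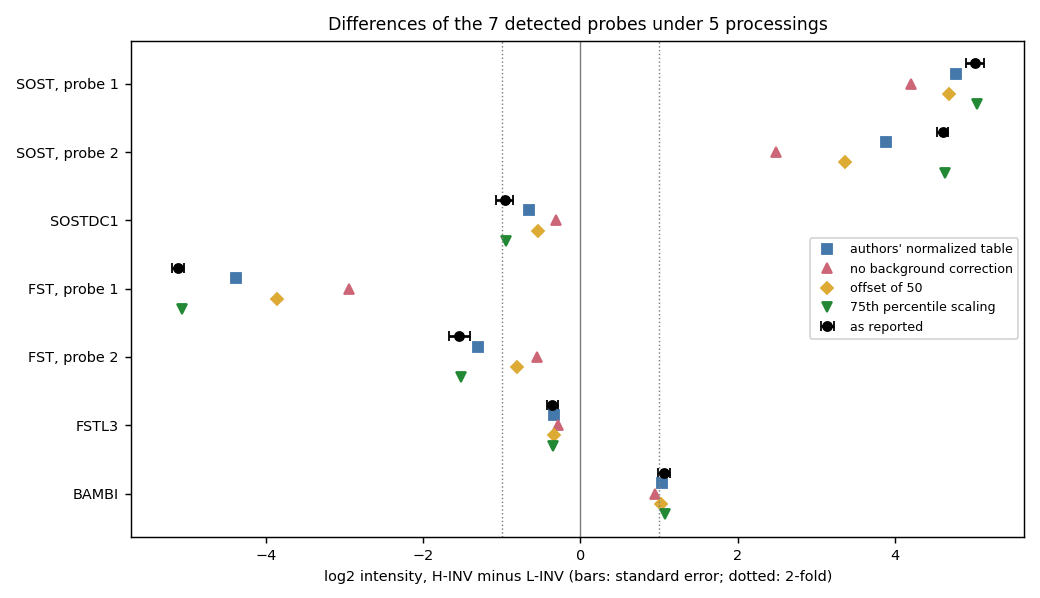
Difference in log2 intensity (H-INV minus L-INV, horizontal axis) of the 7 detected probes as reported (black, bars are SE) and under 4 other processings of the same arrays, with dotted lines at 2-fold. SOST and FST lie far outside the dotted lines on their brighter probes under all 5 processings, FSTL3 lies inside them, and BAMBI lies at the line, at 0.96 without background correction.

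Among the other antagonists, the enzymes that cleave chordin and the remaining inhibin subunits, no gene rose in H-INV cells. Of 24 such genes 22 had a probe and 7 were measured, of which 6 fell, 0 rose and 1 missed the threshold, beside 25.4% and 32.6% of all genes. All 7 limma differences, each on the brightest probe of the gene, lay below 0, so the count of 0 holds at an unadjusted p and by the methods' test too. Their median was -0.46, against 0.05 for all genes. BMPER, a secreted modulator of BMPs, read 8.18, 8.39 and 8.05 in L-INV cells and 4.48, 4.90 and 4.56 in H-INV cells, where it was not above background. It was at least 6.75-fold lower in the H-INV subline (adjusted p = 9.46e-08, limma). INHBE, the subunit of activin E, was at least 2.08-fold lower (adjusted p = 2.93e-05), and it too was above background in L-INV cells alone. BMPER and INHBE passed the filter through that subline and had to differ. CRIM1, a transmembrane protein that binds BMPs, fell by 1.39 ± 0.06 (SE, adjusted p = 3.22e-07), with 9.50, 9.46 and 9.48 in L-INV against 8.06, 8.12 and 8.10 in H-INV cells. NBL1, the antagonist DAN, fell by 0.46, FSTL1 fell by 0.36 and the chordin-cleaving protease BMP1 fell by 0.43. The arrays of these 4 genes did not overlap between the sublines. TWSG1, twisted gastrulation, which works together with chordin, had overlapping arrays and a difference of -0.04 (adjusted p = 0.709). The second TWSG1 probe had a difference of 0.09 (adjusted p = 0.335, limma over all probes past the filter).

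The ligands that these antagonists bind, and relatives of those ligands, changed in both directions. Of 23 BMP, GDF and related ligands 6 were measured, and of these 2 rose and 4 fell, beside 32.6% and 25.4% of all genes, with a median of -1.31. BMP7 was above background in H-INV cells alone, with 7.80, 7.62 and 7.70 against 4.81, 4.65 and 4.68, and was at least 4.71-fold higher there (adjusted p = 1.27e-08). BMP5 was the reverse, at 7.92, 7.91 and 7.97 in L-INV and 4.53, 4.86 and 5.18 in H-INV cells, at least 5.60-fold lower (adjusted p = 4.20e-07). BMP5 and BMP7 passed the filter through a single subline. BMP6 fell by 2.41 ± 0.09, and GDF15, a stress-responsive cytokine, fell by 2.49 ± 0.08 (SE), and both were above background on all arrays. AMH, anti-Müllerian hormone, rose by 0.76, and GDF11, a relative of myostatin that follistatin also binds, fell by 0.21 (adjusted p = 0.0197). GDF11 lost its call without 3 of the arrays, one at a time (L-INV array 1, H-INV array 1 or H-INV array 2), with adjusted p of 0.0549 to 0.0636. Those values are of its brightest probe, and its second probe had a difference of -0.47 (adjusted p = 0.00139, limma over all probes past the filter). BMP2, BMP4, MSTN and NODAL were above background on no array, and GDF2 and GDF9 had no assigned probe.

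Receptors were split as well. Of 18 receptors and co-receptors 9 were measured, of which 4 rose, 3 fell and 2 missed the threshold, beside 32.6% and 25.4% of all genes, and their median was -0.03. TGFBR3, the co-receptor betaglycan that also binds inhibin, rose by 1.36 ± 0.07 (SE, adjusted p = 1.05e-06), from 8.09, 8.01 and 8.21 in L-INV to 9.43, 9.50 and 9.47 in H-INV cells. BMPR2, the type II receptor of BMPs, rose by 1.19 ± 0.10 (SE, adjusted p = 1.56e-05), and its second probe by 1.18. The activin type II receptor ACVR2A rose by 0.62 and the RGM receptor NEO1 by 0.30. In the other direction, the co-receptor ENG fell by 0.48, the activin type I receptor ACVR1B fell by 0.47 and the BMP co-receptor RGMA fell by 0.28 (adjusted p = 0.0240). RGMA was close to the threshold and lost its call without any 1 of 5 arrays, with adjusted p of 0.0507 to 0.0654, and kept it without L-INV array 1. ACVR1 and RGMB had differences of -0.07 and -0.03 and missed the threshold. BMPR1A had no assigned probe and was not analysed here.

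The textbook BMP targets ID1 and ID3 and the inhibitory SMADs were higher in H-INV cells. Of 22 SMADs, SMAD ubiquitin ligases and BMP target genes 16 were measured, of which 8 rose, 3 fell and 5 missed the threshold, beside 32.6% and 25.4% of all genes, with a median of 0.20. ID1, a helix-loop-helix inhibitor of differentiation, read 10.49, 10.43 and 10.33 in L-INV and 12.12, 12.08 and 11.98 in H-INV cells and rose by 1.64 ± 0.07 (SE, adjusted p = 3.67e-07). ID3 read 10.99, 11.11 and 11.18 against 12.59, 12.56 and 12.42 and rose by 1.43 ± 0.08 (SE, adjusted p = 1.33e-06). SMAD6, which blocks BMP signals inside the cell, rose by 1.59 ± 0.09 (SE, adjusted p = 1.09e-06). SMAD7, the inhibitory SMAD of the TGF-β and activin branch, rose by 0.62, with 1 L-INV array and all 3 H-INV arrays above background. HEY1 rose by 0.65, MSX1 by 0.48 and SMAD9, which passed the filter through the H-INV arrays alone, was at least 1.36-fold higher. The second probe of HEY1 had a difference of 0.26 (adjusted p = 0.221, limma over all probes past the filter). ID2, with a difference of -0.09 (adjusted p = 0.466), had overlapping arrays, and ID4 was above background on no array. SMAD5, a signal-carrying SMAD, rose by 0.25 on its brightest probe (adjusted p = 0.0189), but its other probe had a difference of -0.27 and the mean of both was -0.0074 (adjusted p = 0.953), so its direction is uncertain. It also lost its call without L-INV array 3, H-INV array 2 or H-INV array 3, with adjusted p of 0.0517 to 0.0630.

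PMEPA1, a target and feedback inhibitor of TGF-β and activin signaling, was the most reduced gene of that group. It read 8.75, 8.85 and 8.53 in L-INV and 5.66, 5.62 and 5.82 in H-INV cells and fell by 3.01 ± 0.10 (SE, adjusted p = 5.78e-08), while its second probe had a difference of -2.45. SMURF1, which marks BMP-branch SMADs for degradation, fell by 0.67, and MSX2 fell by 0.49. SMAD2, SMAD3 and SMAD4, which carry activin and TGF-β signals, had differences of 0.14, -0.02 and -0.10 with overlapping arrays and missed the threshold. SKI, at -0.01, missed it too. SMAD1 was above background on no array.

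**Figure D3:**
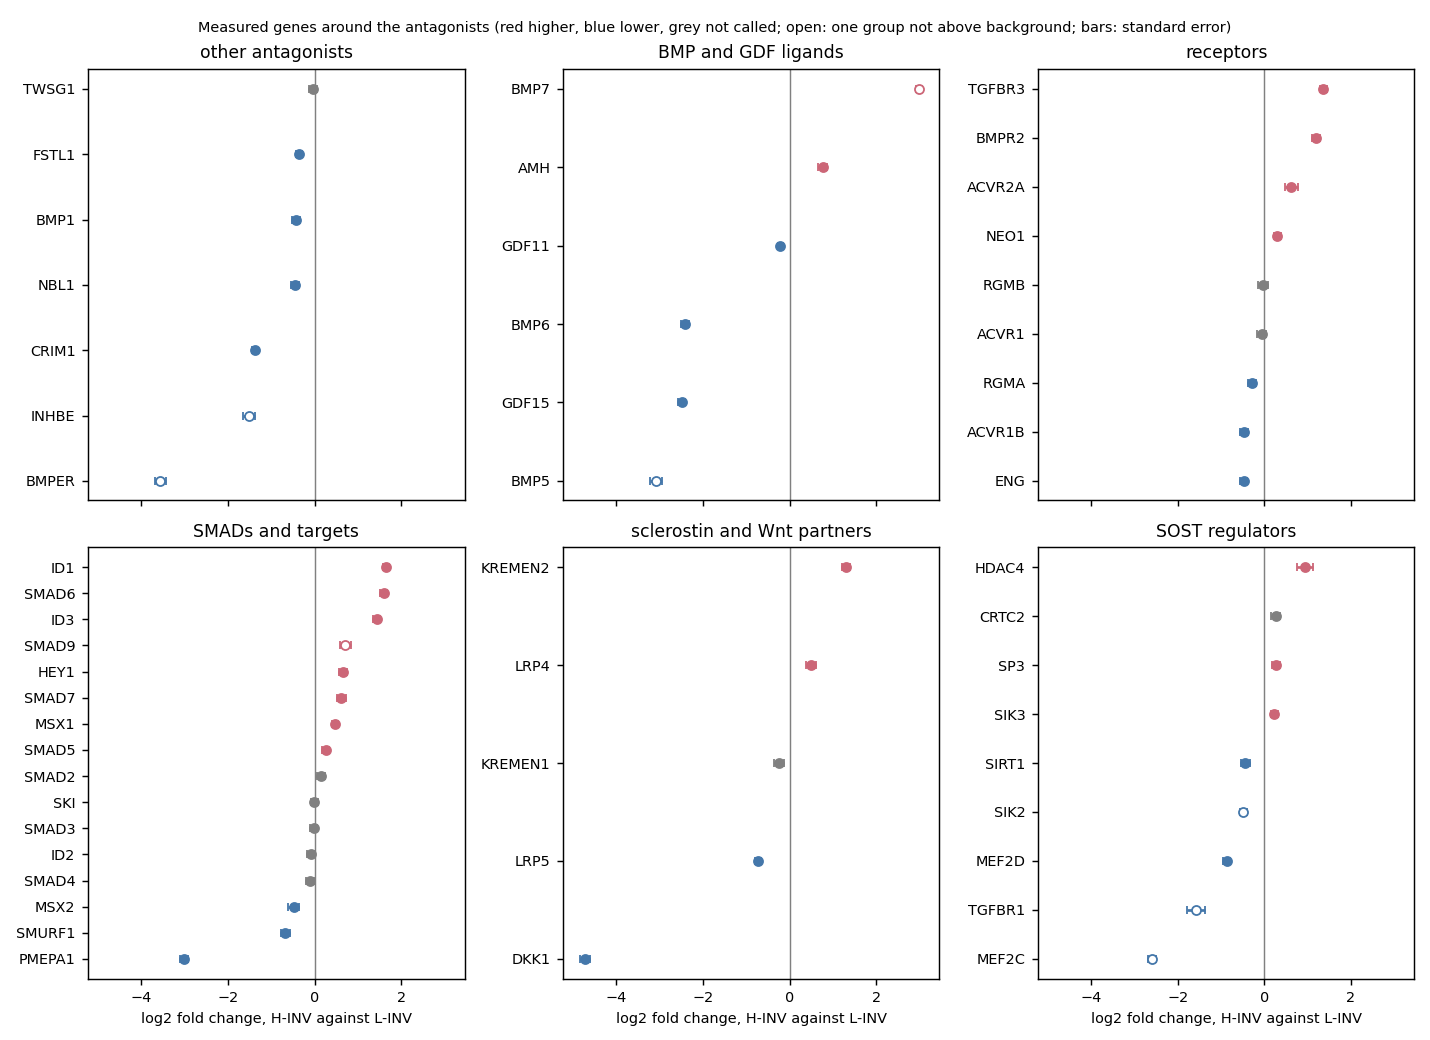
Log2 fold change (H-INV against L-INV, horizontal axes, bars are SE) of every measured gene of 6 groups around the antagonists, in red where higher, blue where lower and grey where not called at an adjusted p of 0.05, with open points where one subline was not above background. The other antagonists lie at or left of 0. Among the SMADs and targets 8 genes are higher, 3 lower and 5 not called, from PMEPA1 at -3.01 to ID1 at 1.64.

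The partners of sclerostin on the Wnt side were mostly near background. Of 16 receptors and secreted Wnt antagonists 5 were measured, of which 2 rose, 2 fell and 1 missed the threshold, beside 32.6% and 25.4% of all genes, with a median of -0.24. DKK1, the secreted Wnt antagonist that shares LRP5 and LRP6 with sclerostin, read 10.16, 10.15 and 10.21 in L-INV and 5.21, 5.68 and 5.46 in H-INV cells. It fell by 4.72 ± 0.11 (SE, adjusted p = 8.81e-09), and 1 of the 3 H-INV arrays was still above background. Of these Wnt antagonists, SOST was thus higher and DKK1 lower in H-INV cells. LRP5, the co-receptor that both bind, fell by 0.73 ± 0.07 (SE, adjusted p = 3.17e-05). KREMEN2, a DKK1 receptor, rose by 1.30 ± 0.10 (SE, adjusted p = 9.48e-06), and LRP4, which anchors sclerostin, by 0.49. LRP6 was above background on no array, and neither were WIF1, SFRP1, SFRP2, SFRP4, SFRP5 and FRZB. KREMEN1 had a difference of -0.24 (adjusted p = 0.0981) and passed the threshold when H-INV array 3 was left out (adjusted p = 0.0396).

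Genes known, mostly from osteocytes of mouse and rat, to act on SOST transcription changed in both directions. Of 15 such genes 9 were measured, of which 3 rose, 5 fell and 1 missed the threshold, beside 32.6% and 25.4% of all genes, with a median of -0.45. MEF2C, which in mouse drives the distant bone enhancer of the gene, read 7.01, 7.13 and 6.74 in L-INV cells and 4.38, 4.31 and 4.40 in H-INV cells. It was not above background in H-INV cells and was at least 2.85-fold lower there (adjusted p = 1.57e-07). MEF2D fell by 0.88, the deacetylase SIRT1 fell by 0.45, and the TGF-β type I receptor TGFBR1 was at least 2.07-fold lower (adjusted p = 0.000250). The kinase SIK2 was at least 1.26-fold lower. MEF2C, TGFBR1 and SIK2 were above background in L-INV cells alone and had to differ once they passed the filter through that subline. With detection required on all 6 arrays 2 genes of this group fell and 4 rose. HDAC4, a class IIa deacetylase that binds MEF2 proteins, rose by 0.93 ± 0.18 (SE, adjusted p = 0.00231), while SIK3 rose by 0.23 and SP3 by 0.26. The last pair were near the threshold, and without L-INV array 3 or without H-INV array 2 only 1 gene of the group was called higher. SP3 lost its call without any 1 of 5 arrays, with adjusted p of 0.0549 to 0.146, and SIK3 without any 1 of 4, with adjusted p of 0.0515 to 0.0836. The second probe of SP3 had a difference of 0.56 (adjusted p = 0.0113, limma over all probes past the filter). CRTC2, with a difference of 0.26, missed the threshold (adjusted p = 0.0579) and passed it when L-INV array 1 or H-INV array 1 was left out (adjusted p = 0.0211 and 0.0415). RUNX2, SP7, PTH1R and ESR1 were above background on no array.

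Since sclerostin is best known from bone, the markers of osteoblasts and osteocytes were read beside it. Of 10 such markers 7 were above background on no array, among them the osteocyte genes DMP1 and MEPE and the osteoblast genes RUNX2, SP7, IBSP and ALPL. PHEX, an osteocyte endopeptidase, was above background in H-INV cells alone, with 6.33, 6.02 and 6.08 against 4.90, 5.08 and 5.05, and was at least 1.60-fold higher (adjusted p = 1.94e-05). It passed the filter through the H-INV arrays and had to differ. BGLAP (0.29) and FGF23 (-0.06) missed the threshold. The summed linear level of the 10 markers was 146 to 188 on the L-INV arrays and 210 to 241 on the H-INV arrays. In such bulk RNA, fewer cells of a type and less RNA per cell cannot be told apart.

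Some markers of other cell types and of epithelium differed between the sublines too, beside 58.0% of all genes called in either direction. Both sublines derive from the H460 line, and the part of such markers in the results was not tested. Of 7 fibroblast markers 1 was measured, COL3A1, which rose by 1.12, and the summed level of the list was 653 to 703 in L-INV and 1249 to 1601 in H-INV cells, with COL1A2, LUM, PDGFRA and DCN above background on no array. Of 5 leukocyte markers CD14 fell by 1.51 and CD68 fell by 1.41 (summed level 730 to 815 against 269 to 307), while PTPRC and CD3E were above background on no array. None of 4 endothelial markers was detected, at summed levels of 21.5 to 28.7 and 24.6 to 26.5. Of 6 epithelial markers 5 were measured, at a summed level of 7709 to 7788 in L-INV and 1917 to 1992 in H-INV cells. KRT19 fell by 4.12 and KRT8 fell by 0.30, KRT7 rose by 1.09, and KRT18 (-0.27) missed the threshold. EPCAM was at least 1.90-fold lower in the H-INV subline, where it was not above background. CDH1, the epithelial cadherin, was above background in neither subline.

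The genes whose profile over the 6 arrays lay closest to that of SOST were OLFML3, CLIC3 and C3, by the Euclidean distance of log2 values after subtraction of each gene's mean. The distances were 0.177, 0.224 and 0.383, against a median of 6.10 over all genes. All 3 were above background on the H-INV arrays alone, at least 21.6-fold higher for OLFML3, at least 22.1-fold for CLIC3 and at least 23.5-fold for C3. Closest to FST lay TFPI, RAB3C and TSPAN8, at distances of 0.358, 0.370 and 0.392 against a median of 6.33. TFPI, the inhibitor of the tissue factor pathway of clotting, had a difference of -4.94 and TSPAN8, a tetraspanin, of -5.05. RAB3C, a small GTPase of secretory vesicles, was at least 18.7-fold lower in the H-INV subline. With 6 arrays in a pair of groups, this likeness says little beyond a similar difference between the sublines.

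**Figure D4:**
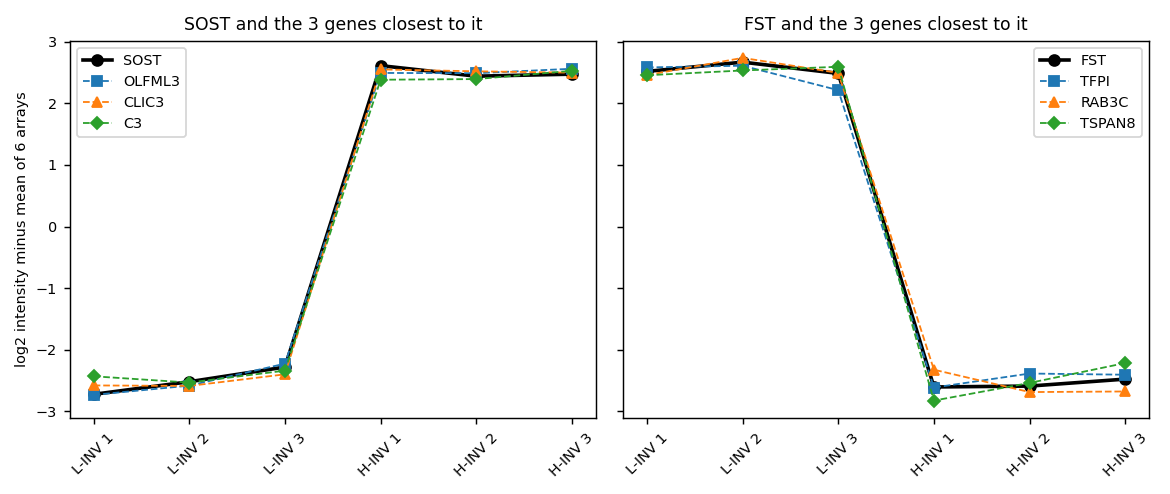
Log2 intensity minus the gene's mean over 6 arrays (vertical axis) on each L-INV and H-INV array (horizontal axis), for SOST with the 3 closest genes on the left and for FST with its 3 closest genes on the right. The lines step once, between the sublines, and vary little within them.

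Genes near SOST were called in both directions. SOST was chosen with its large difference known, and it ranked 8 among the rises of all 10279 genes. Smaller differences in its neighbours follow from that choice, and whether the change is local to SOST was not tested. Within 500 kb of the SOST start lie 22 protein-coding genes in the RefSeq gene table (GRCh38.p14), of which 12 were measured. Of these 4 rose, 2 fell and 6 missed the threshold, beside 32.6% and 25.4% of all genes. With 0 past 2-fold, their median was 0.09. DUSP3, the nearest of those measured, had a difference of 0.12 (adjusted p = 0.145). The genes that passed, named here after their values were seen, were MPP2 (0.67), HROB (0.55), UBTF (0.52) and DHX8 (0.44) upward and G6PC3 (-0.57) and MPP3 (-0.31) downward. DHX8 lost its call without any 1 of 4 arrays, with adjusted p of 0.0619 to 0.0857, and MPP3 without L-INV array 1 or H-INV array 1, with adjusted p of 0.0502 and 0.0505. TMUB2 (0.22) did not pass and was called without H-INV array 3 (adjusted p = 0.0418). Around FST all 4 neighbours were measured, of which 0 rose, 2 fell and 2 missed the threshold, beside 32.6% and 25.4% of all genes. Nothing is read from so few genes. ITGA2, the integrin α2 subunit that binds collagen, fell by 2.81 ± 0.06 (SE, adjusted p = 6.06e-09), and MOCS2 fell by 0.96. NDUFS4, at -0.08, and ARL15, at 0.10, missed the threshold, and both lie on the other side of FST from ITGA2 and MOCS2.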

How the data were processed

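Total RNA of 6 samples, 3 of each H460 subline, was measured on Illumina HumanHT-12 v4 BeadChips. The deposited scanner table holds the intensity of 47322 probes with a detection p-value for each array, without normalization. The authors' second table, background-corrected and quantile-normalized, holds intensity for 47320 probes down to -24.0, and it was shifted by 40 to be used as an alternative. The submitters' processing notes name GenomeStudio and Partek.

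In limma 3.58.1 (R 4.3.3) the scanner intensities were corrected by normexp, with background levels inferred from the detection p-values and an offset of 16, then quantile-normalized and put on the log2 scale. Probes with a detection p under 0.01 on at least 3 arrays were kept (16941). The platform annotation pairs 30111 probes with 1 symbol, 8 with several and 17203 with none. The brightest probe stood for a gene. lmFit and eBayes gave two-sided tests, adjusted by Benjamini-Hochberg over 10279 genes and called at 0.05. The fit was tested on simulated data. The precision is limited by the number of arrays.

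The 10 genes and all gene lists were chosen with earlier results of these data known. Named were all 10 genes with all probes, up to 4 called genes of each list with the largest changes and those of a direction with 5 or fewer, the 3 closest profiles to SOST and to FST, and neighbours past 2-fold. Genes beyond this rule were named after their values were seen. The replicate numbers of the labels were not treated as pairs, since deviations of same-numbered arrays correlated at -0.0665, -0.0194 and -0.0926. Alternatives changed the table, background correction, offset, scaling, filter, probe rule, test, variance prior and block, and left out each array.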

Additional observations from a re-analysis of the deposited data

How the results depend on the processing

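Over 16 counts of called genes and 271 alternatives, 263 stayed within 1.5 times the value given, and of 74 single genes 56 could be tested under every alternative, of which 45 kept their call throughout. The other 18 drop out when detection is required on all 6 arrays. With detection required on all 6 arrays, which leaves fewer genes, 0 ligands were called higher (2 as reported), and 1 Wnt partner higher and 1 lower (2 and 2). Under the same filter 2 regulators of SOST were called lower (5) and 4 higher (3). One-way ANOVA per gene, the methods' test, left 1 Wnt partner higher, as LRP4 lost its call (adjusted p = 0.0560), as did ACVR2A (adjusted p = 0.0600), MSX2 (adjusted p = 0.0675), RGMA, SP3, DHX8 and MPP3, and called 5178 genes in all. With the 2-fold rule 1053 genes were called in place of 5958. Leaving out 1 array at a time, the regulators of SOST called higher ranged from 1 to 3, the genes called from 5327 to 5726, and the members past 2-fold from 3 to 4, the fourth being SOSTDC1 without L-INV replicate 2 or without H-INV replicate 2. Members past 2-fold were 2 without background correction (BAMBI fell inside the line). SMAD5 reversed to -0.0074 (adjusted p = 0.953) when its probes were averaged. With the replicate number as a block, 5647 genes were called, 3 members passed 2-fold, and GDF11 (adjusted p = 0.0501) and SP3 (adjusted p = 0.0646) lost their calls. A detection p under 0.05, chosen after seeing the data because of SOSTDC1, called 6047 genes. Dim probes limit what can be said of SOSTDC1 and of genes below background in one subline, for which only a bound is known. That bound holds for the reported processing alone.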
